A study of Mus musculus with 8 samples.

Results

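The NR4A and EGR factors were followed as 6 genes picked by name, Nr4a1, Nr4a2, Nr4a3, Egr1, Egr2 and Egr3, out of 52459 genes listed in the RNA sequencing of Treg cells. All 6 were among the 15419 genes tested, those whose mean reached 10 normalized counts. The 8 libraries came from Treg cells of C57BL/6 mice, with 2 per combination of genotype (WT or Stim1/2-deficient) and stimulation (unstimulated, or kept for 16 h on plates coated with 1 µg/ml of anti-CD3/CD28 antibody). As the methods state, CD4+ CD25hi cells were sorted from female mice heterozygous for Foxp3-YFPcre and homozygous for floxed Stim1 and Stim2. YFP- cells served as WT and YFP+ cells as deficient, and each sample pooled several mice. The floxed alleles were therefore shared by both genotypes, and the deletion was bound to expression of the X-linked Foxp3-YFPcre allele, in which the Foxp3 promoter drives Cre. The p-values measure the spread between such pools.

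STIM1 and STIM2 sense the calcium content of the endoplasmic reticulum and open the store-operated calcium channel after engagement of the T cell receptor (TCR). The calcium signal activates calcineurin, NFAT and MEF2, whereas the parallel Ras and ERK pathway acts through ternary complex factors and SRF. Both routes reach the immediate early genes, which are transcribed within minutes of a TCR signal without prior protein synthesis. Nr4a1, Nr4a2 and Nr4a3 encode the orphan nuclear receptors Nur77, Nurr1 and NOR1, which bind DNA as monomers and, for Nur77 and Nurr1, also with a retinoid X receptor, and which help to maintain Foxp3 in Treg cells. Egr1, Egr2 and Egr3 encode zinc finger factors that bind a GC-rich element and are restrained by the NAB corepressors, and EGR2 and EGR3 are known for genes of T cell anergy.

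The 250 bases before a transcription start are shown for 4 of the 6 members, with marks at elements through which calcium, cAMP and SRF signals are known to act. They are from RefSeq on GRCm38.p6, each printed on the strand of its gene. No window is given for the remaining members, so the motif counts of members below do not cover them. The window of Nr4a1 is chr15:101266596-101266845 on the plus strand, that of Nr4a2 chr2:57124004-57124253 on the minus strand, that of Nr4a3 chr4:48045055-48045304 on the plus strand, and that of Egr2, for 1 of its 5 listed starts, chr10:67537619-67537868 on the plus strand. All lie outside the transcript that begins at that start, but only the Nr4a2 window lies wholly outside its listed gene. The Nr4a1 and Egr2 windows lie inside genes that begin at 101253902 and 67534469. The Nr4a3 window reaches past the first base of its gene at 48045078. These windows therefore precede starts within the gene. Capitals mark the half-site of the cAMP response element (CRE), CGTCA on either strand, and the CArG box of SRF, and these did not overlap in the sequences printed.
Nr4a1: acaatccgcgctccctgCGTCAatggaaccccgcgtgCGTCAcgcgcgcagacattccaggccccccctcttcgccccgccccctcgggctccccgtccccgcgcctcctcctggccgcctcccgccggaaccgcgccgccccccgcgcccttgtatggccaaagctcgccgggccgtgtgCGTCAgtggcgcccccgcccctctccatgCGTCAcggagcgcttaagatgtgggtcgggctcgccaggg
Nr4a2: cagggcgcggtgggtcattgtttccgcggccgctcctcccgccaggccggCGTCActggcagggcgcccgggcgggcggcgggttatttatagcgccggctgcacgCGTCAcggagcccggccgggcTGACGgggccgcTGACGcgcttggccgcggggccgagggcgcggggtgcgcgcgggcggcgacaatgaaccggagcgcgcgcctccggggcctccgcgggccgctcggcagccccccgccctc
Nr4a3: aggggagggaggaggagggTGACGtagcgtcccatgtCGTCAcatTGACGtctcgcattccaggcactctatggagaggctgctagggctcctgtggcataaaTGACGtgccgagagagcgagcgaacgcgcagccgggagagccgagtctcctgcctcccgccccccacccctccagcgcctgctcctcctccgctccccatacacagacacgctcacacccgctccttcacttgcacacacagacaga
Egr2: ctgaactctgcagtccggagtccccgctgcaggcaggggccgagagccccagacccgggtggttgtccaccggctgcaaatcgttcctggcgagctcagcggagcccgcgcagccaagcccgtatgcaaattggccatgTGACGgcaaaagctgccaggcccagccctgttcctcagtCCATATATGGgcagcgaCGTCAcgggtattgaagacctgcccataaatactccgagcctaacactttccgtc
The windows of Nr4a1, Nr4a2 and Nr4a3 each held 4 CRE half-sites, and that of Egr2 held 2 together with 1 CArG box. Over all 32851 promoter windows of this length, 17.8% held at least 1 CRE half-site, 0.688% at least 3 and 1.47% a CArG box. The NFAT core GGAAA, searched on both strands and free to overlap other motifs, occurred once in the windows of Nr4a2 and Egr2, against 55.6% of all windows with at least 1. The EGR element GCGNGGGCG occurred once in those of Nr4a1 and Nr4a2 (4.70% of all windows), and the NR4A element AAAGGTCA in none of the 4 (1.34% of all windows). The other Egr2 starts differed: the window chr10:67535249-67535498 held no CRE half-site, NFAT core or CArG box, chr10:67537316-67537565 held 3 NFAT cores, 1 CArG box and no CRE half-site, and the remaining 2 overlapped the window printed and held the same matches. These matches describe letters in a window and were not tested as binding sites.

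Values are normalized counts, that is, read counts scaled by the size factor of their library, with 11851853 to 16306540 reads on genes per library. The 6 Treg and CD4 T cell markers, Foxp3 and Il2ra included, were above 0 in every library. Their sums were 85605 and 91902 normalized counts in unstimulated WT libraries and 40109 and 47805 in those labelled Stim1/2-deficient. Foxp3, Il2ra, Ikzf2 and Ctla4 were lower in the latter, Ctla4 at 6338 and 17333 against 37404 and 35119 in WT. Cd3e had 3042 and 3156 against 3424 and 3294 in WT, and Cd4 overlapped between genotypes. Neither Stim1 nor Stim2 was called in either genotype comparison, with log2 differences of 0.44 and -0.15 in unstimulated and -0.15 and -0.13 in stimulated cells (limma adjusted p = 0.236, 0.721, 0.807 and 0.827). A count for a whole gene cannot show the loss of an exon, so the libraries are named by their labels. The paper reported loss of Stim1 and Stim2 expression by RT-PCR in Treg cells of male mice. It also reported that YFP+ Treg cells of the female heterozygous mice lacked store-operated calcium entry. Differences are log2 fold changes of labelled over WT, or of stimulated over unstimulated, libraries. All unstimulated libraries were run on one lane and all stimulated ones on another, so stimulation and lane cannot be told apart. In bulk RNA, fewer cells with a transcript and less of it per cell cannot be told apart either.

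Nr4a1, Nr4a2 and Nr4a3 were abundant before stimulation. Nr4a1, induced by TCR signals in proportion to their strength, stood at 3802 and 3748 normalized counts in WT libraries before stimulation and 737 and 853 after 16 h. In labelled libraries it had 2346 and 6720 before and 869 and 1759 after stimulation. The 2 unstimulated labelled libraries therefore lay on either side of both WT libraries, and every stimulated library lay below every unstimulated one. Nr4a2, the NR4A member with the steepest fall, stood before stimulation at 7056 and 8030 normalized counts in WT and at 1256 and 5213 in labelled libraries. After stimulation it had 268 and 199 in WT and 191 and 65.0 in labelled libraries. In each state the labelled values were the lower ones, without overlap. Nr4a3 reached the highest counts of the 6 genes, at 13090 and 14694 in unstimulated WT and 2956 and 21830 in unstimulated labelled libraries. Stimulated WT libraries had 6216 and 7635 and stimulated labelled libraries 5810 and 4496. One unstimulated labelled library was thus below, and the other above, all 6 remaining libraries.

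The EGR genes followed other patterns. Egr1 had 1754 and 1866 normalized counts in WT libraries before stimulation, 2194 and 2146 in unstimulated labelled, 1613 and 2240 in stimulated WT and 2694 and 4762 in stimulated labelled libraries. The labelled libraries were above the WT libraries in both states. Egr2, which with Egr3 limits T cell activation, had 253 and 230.4 normalized counts in unstimulated WT and 191 and 212 in unstimulated labelled libraries. At 16 h it had 1376 and 1145 in WT and 765 and 536 in labelled libraries. Stimulated libraries were all above unstimulated ones, and the labelled libraries were below the WT libraries in each state. Egr3 had 364 and 400.3 normalized counts in unstimulated WT and 331 and 389 in unstimulated labelled libraries. It had 745 and 720 in stimulated WT and 436 and 464 in stimulated labelled libraries, so the genotypes overlapped before stimulation and not after it.

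**Figure D1:**
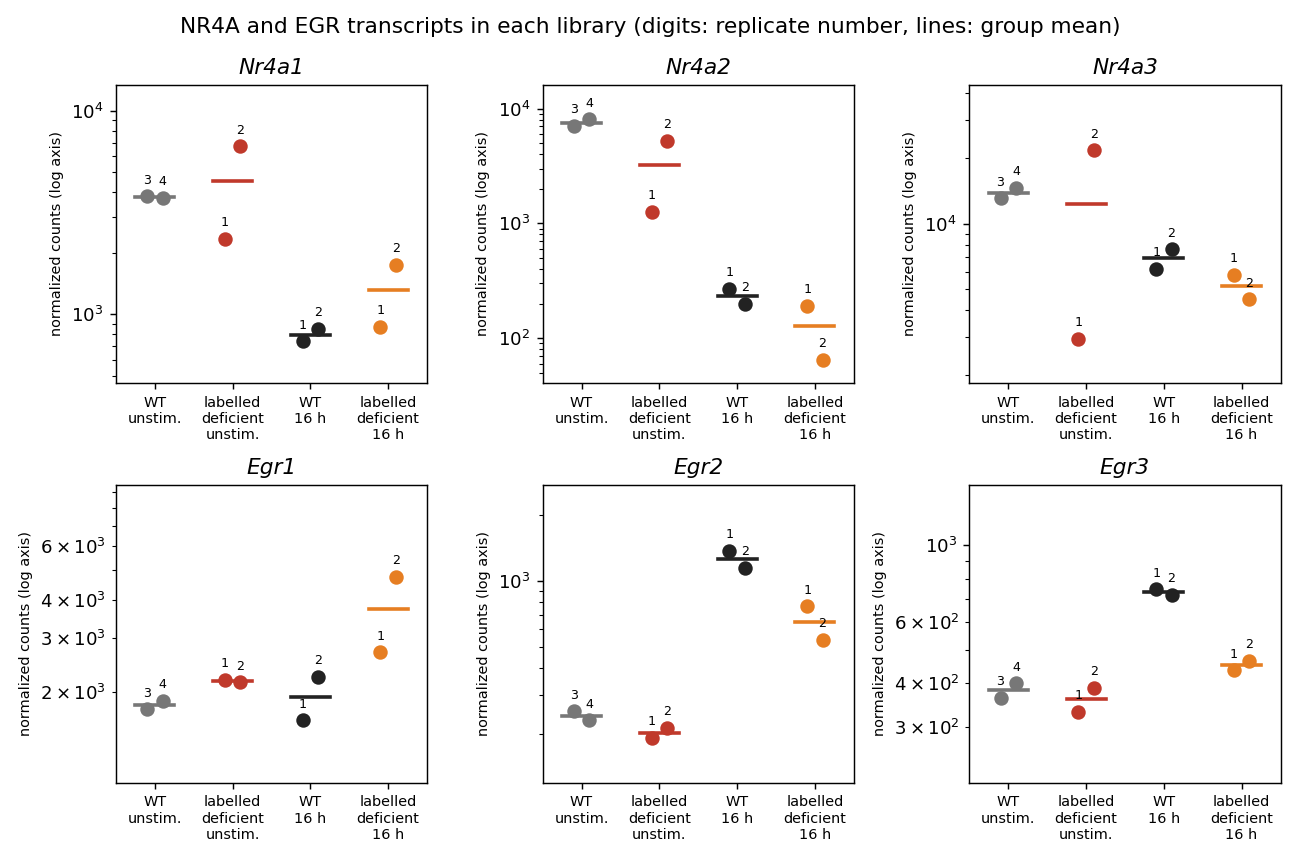
Normalized counts on a log axis for the 6 genes in each of the 8 libraries, with points numbered by replicate and a line at the mean of each group. The 2 unstimulated labelled libraries lie far apart for the NR4A genes (2956 and 21830 for Nr4a3) and close together for the EGR genes (331 and 389 for Egr3).

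Levels were compared between genes as normalized counts per kilobase of merged exons, taken by symbol from GENCODE vM1. In unstimulated WT libraries the order of the mean levels was Nr4a3 at 2320, Nr4a2 at 1858, Nr4a1 at 1526, Egr1 at 584, Egr3 at 260.04 and Egr2 at 71.1 per kilobase, and no neighbours overlapped between libraries. In unstimulated labelled libraries Nr4a3 at 2070, Nr4a1 at 1832, Nr4a2 at 797 and Egr1 at 700 per kilobase overlapped with their neighbours. Egr3 at 245 and Egr2 at 59.3 followed without overlap. After stimulation of WT cells the order was Nr4a3 at 1157, Egr1 at 621, Egr3 at 499, Egr2 at 371, Nr4a1 at 321 and Nr4a2 at 57.5 per kilobase, and only Egr2 and Nr4a1 overlapped. In stimulated labelled libraries Egr1 stood first at 1202 per kilobase, overlapping Nr4a3 at 861, and Nr4a2 was last at 31.5.

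In unstimulated cells, none of the 6 genes was called lower or higher in labelled than in WT libraries at a limma adjusted p under 0.05 and more than 1.5-fold. Over all tested genes, 3.35% were called lower and 1.38% higher. At an unadjusted p under 0.05 and more than 1.5-fold, 1 member was lower (Nr4a2) and none was higher, against 11.1% and 8.68% of all tested genes, and edgeR and DESeq2 on the recovered reads also called none. Nr4a2 had a log2 difference of -1.56 (SE 0.60, 95% interval -2.90 to -0.21, limma adjusted p = 0.167). The log2 difference was -0.79 for Nr4a3 (SE 0.67, limma adjusted p = 0.533) and 0.07 for Nr4a1 (SE 0.44, limma adjusted p = 0.946). The EGR genes had narrower intervals, from -0.32 to 0.85 around 0.26 for Egr1, from -0.79 to 0.28 around -0.26 for Egr2, and from -0.55 to 0.37 around -0.09 for Egr3 (limma adjusted p = 0.608, 0.572 and 0.849). The sign for Egr3 turned with scaling, to 0.03 with equal totals, 0.17 with equal upper quartiles and 0.01 with quantile normalization. Both labelled libraries lay below both WT libraries for 2 members (27.1% of all tested genes) and above them for 1 (26.5%).

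The NR4A values of unstimulated cells turned on which labelled library was used. Replicate 2 exceeded replicate 1 by 2.87-fold for Nr4a1, 4.15-fold for Nr4a2 and 7.38-fold for Nr4a3. Among 9147 genes whose mean reached 100 normalized counts, 3.54%, 1.12% and 0.109% had a larger gap between these 2 libraries, and the median gene differed by 1.30-fold. The same libraries differed by only 1.02-fold for Egr1, 1.11-fold for Egr2 and 1.17-fold for Egr3. In the unstimulated WT pair, the 6 members differed by 1.01-fold to 1.14-fold. Without labelled replicate 2, Nr4a3 had a log2 difference of -2.23 and Nr4a2 of -2.58. Without labelled replicate 1, the log2 difference of Nr4a3 was 0.65, that of Nr4a2 -0.53 and that of Nr4a1 0.83. As 1 labelled library remained in each of these fits, only the sizes are given. Nr4a1 turned to -0.69 without labelled replicate 2.

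**Figure D2:**
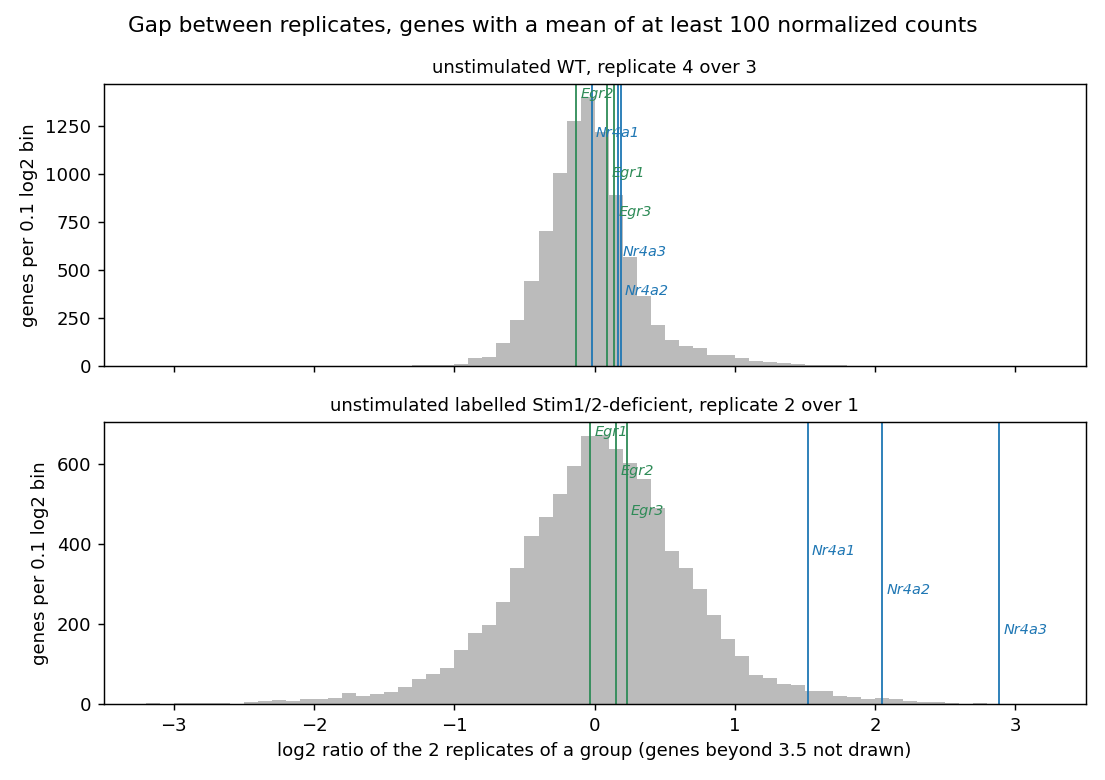
Histograms of the log2 ratio between the 2 libraries of a group over 9147 genes, for unstimulated WT (upper panel) and unstimulated labelled cells (lower panel), with lines at NR4A genes in blue and EGR genes in green. In the labelled pair the NR4A genes lie in the right tail, up to 7.38-fold for Nr4a3, while the EGR genes lie near 0.

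Among 30 other immediate early genes, 17 were higher in labelled replicate 2 and 13 in labelled replicate 1. The largest gap was that of Fosl2, an AP-1 subunit named here after its value was seen, with 1685 and 8612 normalized counts. Transcripts of other cells also separated these libraries. The summed level of 10 macrophage and myeloid markers was 7000 normalized counts in labelled replicate 1 and 1209 in replicate 2, against 372 and 375 in WT, with none of the 10 at 0 in labelled libraries and 2 or 3 at 0 in WT. The sum of 8 B cell markers was 3020 and 709 in labelled against 290.3 and 329 in WT libraries. The 5 CD8 T and NK markers summed to 832 and 278 in labelled and 305 and 256 in WT libraries, the 4 neutrophil markers to 686 and 297 against 119 and 85.7, and the 4 erythroid markers to 169 and 72.1 against 25.9 and 63.5. The share of reads on mt-Rnr2, a mitochondrial ribosomal RNA, was 22.1% and 13.4% in labelled and 19.6% and 20.1% in WT libraries. The part of these differences in the NR4A values was not tested.

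After 16 h of stimulation, again none of the 6 genes was called between genotypes by limma, against 0.11% of all tested genes called lower and 0.162% higher. At an unadjusted p under 0.05 and more than 1.5-fold, Egr2 and Egr3 were lower (6.95% of all tested genes) and Egr1 was higher (5.6%). Egr2 had a log2 difference of -0.97 (SE 0.24, 95% interval -1.5 to -0.43, limma adjusted p = 0.110). DESeq2 called it lower, with an adjusted p of 0.0212, in a fit that called 287 genes lower and 238 higher over all tested genes. Egr1 had a log2 difference of 0.91 (SE 0.26, 95% interval 0.33 to 1.5, limma adjusted p = 0.156), and DESeq2 called it higher with an adjusted p of 0.0298. Without stimulated labelled replicate 1, Egr2 stood at -1.23 and Egr1 at 1.32, whereas without replicate 2 they stood at -0.71 and 0.50. As 1 labelled library remained in each of these fits, only the sizes are given. Egr3 had a log2 difference of -0.70 (SE 0.21, 95% interval -1.16 to -0.24, limma adjusted p = 0.161), which stayed between -0.75 and -0.66 with each library left out, and edgeR and DESeq2 did not call it. The edgeR test called no member.

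The NR4A genes had wider intervals than the EGR genes in stimulated cells too. The model takes 1 spread per gene from all 8 libraries, so these widths include the gap of the unstimulated labelled pair. The stimulated WT and labelled pairs differed by 1.23-fold and 1.29-fold for Nr4a3. They differed by 1.35-fold and 2.93-fold for Nr4a2, and by 1.16-fold and 2.02-fold for Nr4a1. The log2 difference was -1.04 for Nr4a2 (95% interval -2.39 to 0.30), -0.43 for Nr4a3 (95% interval -1.91 to 1.05) and 0.64 for Nr4a1 (95% interval -0.33 to 1.62), with limma adjusted p = 0.495, 0.834 and 0.579. All 6 members had groups that did not overlap, with both labelled libraries below WT for 4 members and above for 2. Of all tested genes, 23.1% lay below and 24.3% above. The 10 myeloid markers summed to 265 and 125 normalized counts in stimulated WT and 422 and 344 in stimulated labelled libraries, with 4 or 5 markers at 0 in each. The 8 B cell markers summed to 923 and 175 in WT and 1336 and 275 in labelled libraries, so that replicate 1 was higher in each genotype.

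**Figure D3:**
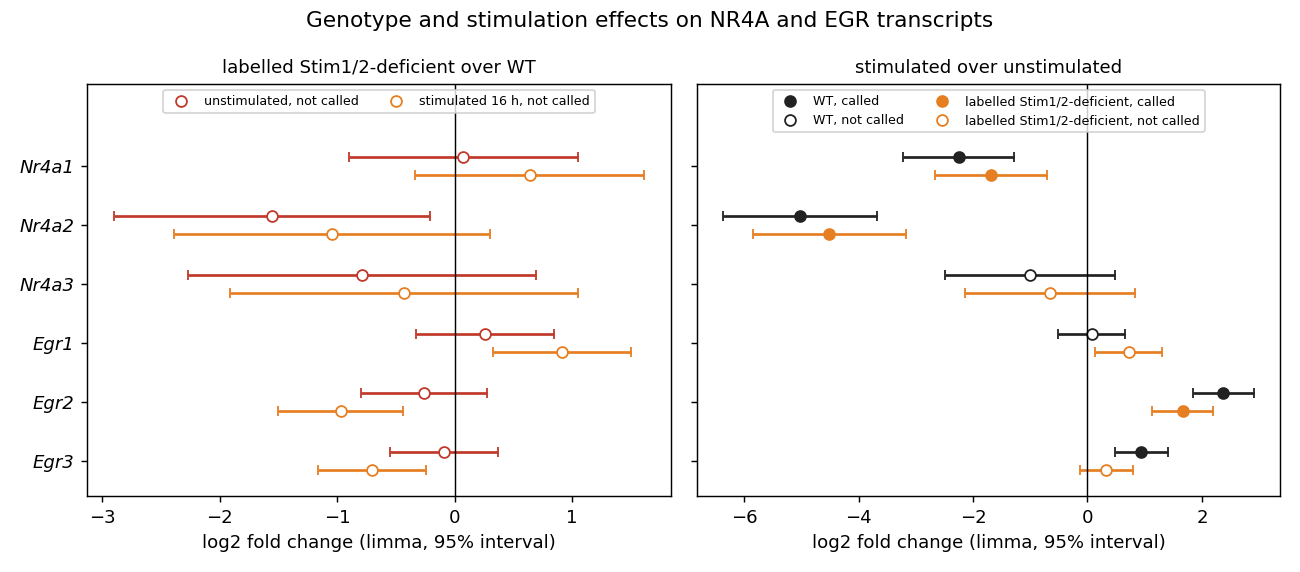
Log2 fold changes of the 6 genes with 95% limma intervals, for labelled over WT libraries in each state (left) and for stimulated over unstimulated libraries in each genotype (right), with filled points for called genes. No genotype effect was called by limma with all 8 libraries, and after stimulation the intervals of Egr1 (0.33 to 1.5), Egr2 and Egr3 exclude 0 before adjustment.

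**Figure D4:**
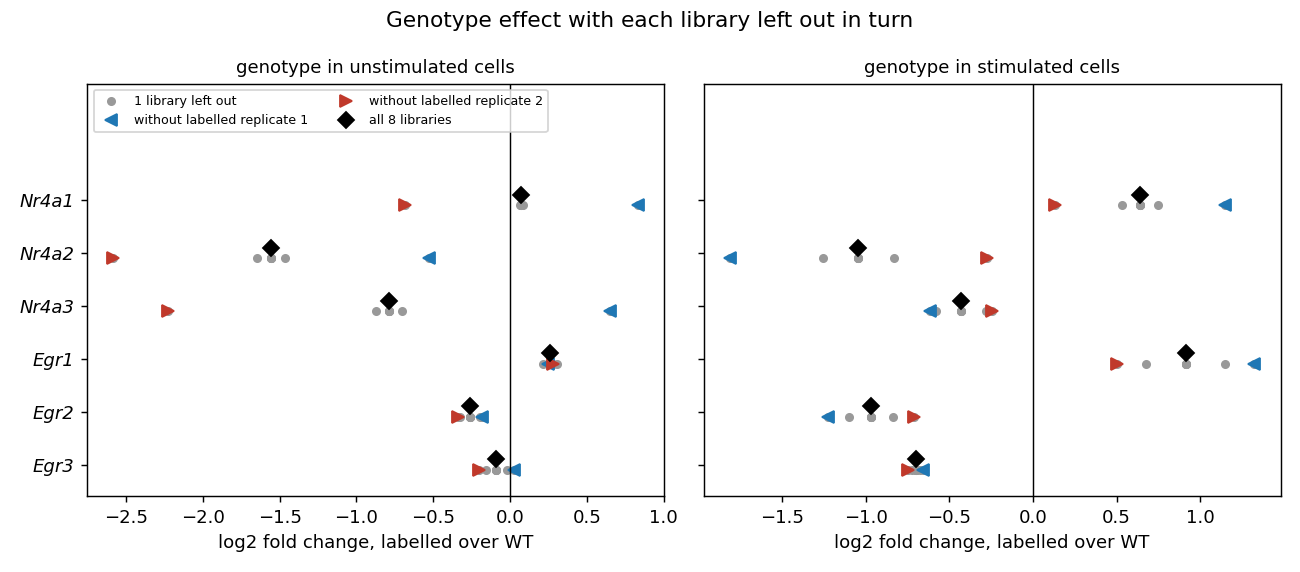
Log2 difference between genotypes with all 8 libraries (diamonds) and with each library left out (points, with triangles for the 2 labelled libraries of that state). For Nr4a3 in unstimulated cells the values run from -2.23 to 0.65, and for Egr3 in stimulated cells from -0.75 to -0.66.

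The difference between the genotypes was not shown to depend on stimulation for any member. The interaction of genotype and stimulation was called for 0 of 6 members by limma, edgeR and DESeq2, and by all 3 tools 0 members passed at an unadjusted p under 0.05 and more than 1.5-fold, which 3.52% of all tested genes passed as negative and 4.57% as positive by limma. At that threshold Egr2 and Egr3 were negative with equal totals, equal upper quartiles and quantile normalization. Over all tested genes, 0.0% were called negative and 0.0% positive by limma. The interaction was -0.71 for Egr2 (95% interval -1.47 to 0.05) and -0.61 for Egr3 (95% interval -1.27 to 0.04) on the log2 scale, with a limma adjusted p of 0.625 for each. It was 0.65 for Egr1 and 0.57, 0.51 and 0.36 for Nr4a1, Nr4a2 and Nr4a3. Without unstimulated labelled replicate 2, the interaction was 1.33 for Nr4a1, 1.54 for Nr4a2 and 1.8 for Nr4a3. Without unstimulated labelled replicate 1 it was -0.19, -0.51 and -1.09. Without stimulated labelled replicate 1 the interaction was 1.06 for Egr1 and -0.97 for Egr2, and without replicate 2 it was 0.24 and -0.45.

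The members differed in direction between stimulated and unstimulated WT libraries. Nr4a2 had a log2 difference of -5.02 (SE 0.60, limma adjusted p = 9.0e-04), or 32.5-fold lower, and Nr4a1 of -2.25 (SE 0.44, limma adjusted p = 0.00652). Egr2 rose by 2.37 on the log2 scale (SE 0.24, limma adjusted p = 4.7e-04), or 5.19-fold, and Egr3 by 0.94 (SE 0.21, limma adjusted p = 0.0110). Nr4a3 at -1.01 (95% interval -2.49 to 0.47) and Egr1 at 0.07 (95% interval -0.52 to 0.66) were not called, and the sign for Egr1 turned to -0.06 with equal upper quartiles. The WT libraries of Nr4a3 did not overlap between states, and the spread in the model includes the labelled pair at 2956 and 21830. With the same log2 difference, Nr4a3 was called lower in the fit to the 4 WT libraries (limma adjusted p = 4.2e-04) and without unstimulated labelled replicate 1 or 2 (limma adjusted p = 0.00188 and 0.00214). Thus 2 members were called lower (13.1% of all tested genes) and 2 higher (10.2%), while both stimulated libraries lay below both unstimulated ones for 3 members (36.0%) and above for 2 (35.0%). The calls of Nr4a2 and Egr2 were kept in every alternative run. The call of Nr4a1 was lost without WT replicate 3 or 4 or stimulated WT replicate 1, where its log2 difference remained between -2.26 and -2.14, and that of Egr3 was lost without any 1 of the 4 WT libraries, at 0.87 to 1.01.

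In labelled libraries, Nr4a2 fell by 4.51 on the log2 scale (SE 0.60, limma adjusted p = 0.00113) and Nr4a1 fell by 1.68 (SE 0.44, limma adjusted p = 0.0197). Egr2 rose by 1.66 (SE 0.24, limma adjusted p = 0.00151). Egr1 had a log2 difference of 0.72 (limma adjusted p = 0.0702), Egr3 of 0.33 (limma adjusted p = 0.272) and Nr4a3 of -0.65 (limma adjusted p = 0.499). The value for Egr3 turned to -0.09 with equal upper quartiles. The call of Nr4a1 was lost without unstimulated replicate 2 (-0.92), without stimulated replicate 1 (-1.17) and in the fit to the 4 labelled libraries (limma adjusted p = 0.0724). Nr4a3 ranged from -2.09 without unstimulated replicate 1 to 0.79 without replicate 2, in opposite directions. With all libraries, 2 members were called lower (12.0% of all tested genes) and 1 higher (13.0%), and the libraries did not overlap, below for 2 members (30.6%) and above for 3 (30.8%). The stimulation and genotype comparisons share their libraries, so they are not independent of each other.

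The partners of these factors were described from lists of genes. Of the remaining EGR and NAB genes, Egr4 was not tested, with at most 12.2 normalized counts in a library and 0 in both unstimulated labelled libraries. Nab1, a corepressor of EGR factors, had a log2 difference of -0.26 in unstimulated and 0.29 in stimulated cells, and Nab2 of -0.41 and 0.45, with none called. Nab2 rose by 0.79 with stimulation of labelled cells (limma adjusted p = 0.0369). Of the 6 genes for SRF, its cofactors and ternary complex factors, none was called between genotypes, with medians of -0.16 and 0.01 in unstimulated and stimulated cells. None was called either among the 13 tested genes of 14 for MEF2, CREB and class IIa HDAC proteins, which regulate NR4A transcription. Their medians were 0.00 and 0.06, with single genes from -1.27 to 2.78 in unstimulated cells. Of these 13, 9 were higher in unstimulated labelled replicate 2 and 4 in replicate 1, with log2 ratios of -2.03 to 2.24. Of the 2 tested of 3 retinoid X receptor genes none was called, with medians of -0.07 and -0.47. The median over all tested genes was -0.01 in unstimulated and 0.02 in stimulated cells.

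The other immediate early genes were described in the same way. Of 30 tested, 23 were called lower and 1 higher with stimulation of WT cells, with a median log2 difference of -1.85 (13.1% and 10.2% of all tested genes), and 18 lower and 1 higher in labelled cells, with a median of -1.39 (12.0% and 13.0%). Between genotypes in unstimulated cells, 3 were called lower and 1 higher, with a median of -0.19 (3.35% and 1.38% of all tested genes). Nfil3, a bZIP repressor, had a log2 difference of -2.61 (limma adjusted p = 0.0189), Dusp4, an ERK phosphatase, of -2.07 (limma adjusted p = 0.0271), and Zfp36l1, an RNA-binding protein that promotes mRNA decay, of -0.84 (limma adjusted p = 0.0349). Btg1, an antiproliferative gene of resting lymphocytes, had 9553 and 9540 normalized counts in WT and 18254 and 16360 in labelled ones, a log2 difference of 0.86 (limma adjusted p = 0.0251). In stimulated cells Cd69, an early activation antigen, was the 1 gene of the list called (higher, 0.162% of all tested genes), with 2161 and 2165 normalized counts in WT and 4521 and 6289 in labelled ones, a log2 difference of 1.30 (limma adjusted p = 0.0481).

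Genes of anergy and TCR restraint include targets of EGR2, EGR3 and NR4A factors. Of 29 tested of 30, 11 were called lower and 1 higher in unstimulated labelled libraries, against 3.35% and 1.38% of all tested genes, and 17 did not pass the test. The median was -0.69. The checkpoint receptor gene Havcr2 (TIM-3) had a log2 difference of -3.69 (limma adjusted p = 0.00570) and Tigit, another inhibitory receptor, of -3.61 (limma adjusted p = 0.0203). Tnfrsf9, which encodes the costimulatory receptor 4-1BB, had 3118 and 2953 normalized counts in WT and 363 and 353 in labelled libraries. Its log2 difference was -3.08 (SE 0.18, limma adjusted p = 1.2e-04). Nrn1, the gene for neuritin, followed at -2.25 and Pdcd1, the gene for PD-1, at -2.20 (limma adjusted p = 0.0225 and 0.0104). In stimulated cells 1 gene of the list was called lower (0.11% of all tested genes), Tnfrsf9 at -1.36 (limma adjusted p = 0.0356), and the median was -0.11.

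Of 12 Treg genes linked to NR4A factors, 7 were called lower and none higher in unstimulated labelled libraries, against 3.35% and 1.38% of all tested genes, with a median of -1.18. Itgae, the gene for the integrin CD103, had a log2 difference of -3.01 and Ccr4, a chemokine receptor, of -2.44 (limma adjusted p = 0.00803 and 0.0128). Batf and Irf4, transcription factors of effector Treg cells, stood at -2.07 and -1.90 (limma adjusted p = 0.00593 and 0.00880), and Tnfrsf4, which encodes OX40, at -1.93 (limma adjusted p = 0.0181). After stimulation, Itgae at -2.74 and Batf at -1.76 were called lower (limma adjusted p = 0.0392 for each, 0.11% of all tested genes) and the median was -0.59. The study named several of these genes from the same libraries, so these lists are not independent evidence. All 14 calls named here for unstimulated cells were kept by edgeR and DESeq2. The fit to the 4 unstimulated libraries kept 9, and testing every gene above 0 kept 11. Every direction was unchanged with a library left out. Most of these calls were lost without an unstimulated WT library and kept without an unstimulated labelled one. Calls over all genes fell and rose likewise, so neither is a result about these genes. The 4 calls in stimulated cells were all kept by DESeq2. All 4 were lost with edgeR, in the fit to the 4 stimulated libraries, with every gene above 0 tested, and without any 1 WT library of either state or stimulated labelled replicate 2. Of the marker sums given above, those of myeloid cells, B cells, neutrophils and erythroid cells were higher in both unstimulated labelled libraries than in both WT libraries, while that of CD8 T and NK cells overlapped. Their part in these list values was not tested.

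**Figure D5:**
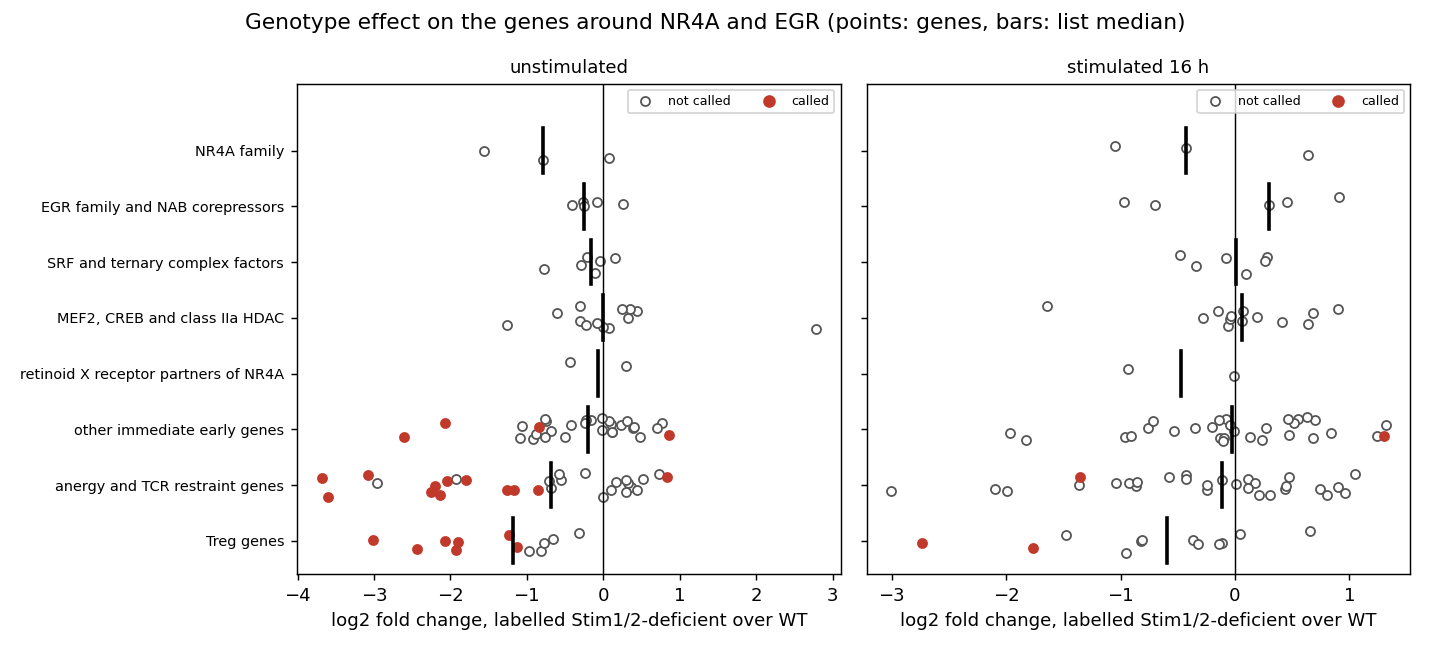
Log2 difference of labelled over WT libraries for each tested gene of 8 lists (points, filled when called) with the median of the list as a bar, in unstimulated (left) and stimulated cells (right). Called genes lie in the anergy, Treg and immediate early lists, with medians of -0.69, -1.18 and -0.19 in unstimulated cells, and limma with all 8 libraries calls no NR4A or EGR gene.

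Pearson's r on log2 values over the 8 libraries compares the shape of profiles, not their levels or the size of a change. The genes with the highest r to each member are given as a description, from 9146 genes compared, with points that share lane and stimulation. For Nr4a1 they were Bach1, Igf2r and Plekhb1, with Pearson's r of 0.993, 0.992 and 0.992 and Spearman's rho of 0.976, 0.952 and 0.952. For Nr4a2 they were Ddx3x, Gla and Cul4b, with r of 0.994, 0.994 and 0.993 and rho of 0.929, 1.00 and 0.929. For Nr4a3 they were Sh3rf1, Nup98 and Cltc, with r of 0.977, 0.974 and 0.967 and rho of 0.976, 1.00 and 0.929. For Egr1 they were Ahcyl2, Aida and Ctdsp1, with r of 0.987, 0.977 and 0.972 and rho of 0.976, 0.905 and 0.905. Thyn1, Foxk2 and Rrp1b had the highest r to Egr2, at 0.993, 0.992 and 0.989, with rho of 1.00, 1.00 and 0.976. Ppp1r3b, Zfp940 and Fignl1 had the highest r to Egr3, at 0.970, 0.956 and 0.954, with rho of 0.881, 0.786 and 0.786. Among the members, Egr2 and Egr3 had an r of 0.918 and Nr4a1 and Nr4a2 of 0.824, while Egr2 and Nr4a1 had an r of -0.912.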

How the data were processed

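RNA of sorted Treg cells was sequenced from TruSeq libraries, stranded per the labels, whereas the methods name a TruSeq kit that is not stranded. The methods name Bowtie, NCBIM37, Picard, HTSeq and DESeq2, whereas the submitters' processing notes list bcl2fastq 1.8.4, STAR 2.7, DESeq2 and mm10, so the build behind the counts is unsettled. Signal values were deposited by the authors as gene counts scaled with the size factor of each library, to 2 decimals. Whole reads were recovered for 100% of values (tolerance 0.006 normalized counts).

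Groups follow the labels. For genes whose mean reached 10, limma 3.58.1 under R 4.3.3 fitted log2 values (pseudocount 1) in 1 model of 4 groups, with a trended variance prior, with 2-sided tests and Benjamini-Hochberg adjustment within each contrast. Calls required an adjusted p under 0.05 and over 1.5-fold. Alternatives were other pseudocounts, filters and scalings, fits to 4 libraries, recovered reads in edgeR 4.0.16 and in DESeq2 1.42.0, a replicate block, and each library left out. Scripts were tested on simulated data. Members and lists were chosen with earlier results of these data known. All members were named in every contrast, and of each other list the called genes of a genotype contrast, at most the 5 with the largest change in unstimulated cells and 3 in each other contrast. Similar genes were the 3 with the highest r among genes with a mean of at least 100.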

Additional observations from a re-analysis of the deposited data

How the results depend on the processing

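The ranges of members called are from the fits with 1 library left out. In these fits the remaining library of its group was assumed to vary like the other groups. Members called lower in unstimulated labelled libraries numbered 0 to 2, in stimulated ones 0 to 1 lower and 0 to 1 higher, and in the interaction 0 to 1 positive. For stimulation, the ranges were 1 to 3 lower and 1 to 2 higher in WT cells, and the same in labelled cells. DESeq2 called 1 member lower and 1 higher between stimulated genotypes. The 4 libraries alone gave 1 lower with stimulation of labelled cells, and 3 (equal totals), 2 (quantile normalization) and 2 (DESeq2) were higher. The stimulated libraries of both genotypes and both states of labelled cells share only replicate numbers, 2 pairs each. A replicate block gave 2 members higher with stimulation of labelled cells, and changed no other count of members. The cause of these changes was not tested.

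Of 922 alternative gene values, 793 kept direction and call, 95 lost the call, 17 gained one and 17 turned. Egr3 between unstimulated genotypes turned with equal totals (0.032), equal upper quartiles (0.17) and quantile normalization (0.012), and ranged from -0.20 to 0.026 (without labelled replicate 1) with a library left out. There, Nr4a1 ranged from -0.69 (without labelled replicate 2) to 0.83 and Nr4a3 from -2.23 to 0.65 (without labelled replicate 1). The interaction turned without unstimulated labelled replicate 1, in ranges of -0.19 to 1.33 for Nr4a1, -0.51 to 1.54 for Nr4a2 and -1.09 to 1.8 for Nr4a3. It also turned for Nr4a2 without stimulated labelled replicate 1 (-0.26) and for Nr4a3 with edgeR (-0.25) and DESeq2 (-0.28). With stimulation of WT cells, Egr1 turned with equal upper quartiles (-0.060) and ranged from -0.16 (without stimulated replicate 2) to 0.31. In labelled cells, Egr3 turned with equal upper quartiles (-0.088), and Nr4a3 ranged from -2.09 to 0.79 (without unstimulated replicate 2).

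Equal upper quartiles were taken over the values above 0 in each library. A version over the tested genes was added after the values of the first were seen, and both are reported: Egr3 in unstimulated cells was 0.074 with it, and Egr1 and Egr3 did not turn with stimulation. Between unstimulated genotypes, 517 genes were called lower and 213 higher, against 353 and 241 with equal totals, 239 and 418 with the first and 332 and 286 with the second upper quartile, 353 and 131 with edgeR and 810 and 511 with DESeq2. The median of all genes shifted to 0.11, 0.24 and 0.15 under the 3 scalings. Between stimulated genotypes, 17 and 25 were called, against 0 and 1 with edgeR, 287 and 238 with DESeq2 and 43 and 45 with the replicate block. With stimulation of WT cells, 2013 and 1580 became 974 and 4258 with equal totals (median 0.52) and 2417 and 1097 with the first upper quartile (median -0.12). In labelled cells, 1855 and 1997 became 1077 and 3791 (median 0.35) and 3586 and 877 (median -0.44). Depth did not limit the members, each with at least 77 reads in a library.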
